A study of Sus scrofa with 18 samples.

Results

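The microRNA (miRNA) family examined was the miR-15, miR-16, miR-195 and miR-497 family, in small RNA from pig backfat, the subcutaneous fat along the back. Its members were taken by name from the column of mature miRNAs in the count table: miR-15a, miR-15b, miR-16, miR-195, miR-424 or miR-497, with or without an arm suffix. Of these 6 names, 4 were in the table as ssc-miR-15b, ssc-miR-16, ssc-miR-195 and ssc-miR-497 (ssc for the pig), each as 1 arm from 1 listed hairpin. ssc-miR-15a and ssc-miR-424 were not analysed here. These 4 were among 240 mature miRNAs, and they held 403 of the 16636 distinct read sequences. The libraries came from 18 Italian Large White pigs kept on 1 diet and in 1 environment. Of these, 9 were classed as high for backfat (5 castrated males, 4 females) and 9 as low (4 castrated males, 5 females). The pigs were 233 to 250 days old and weighed 150 to 160 kg. Each library had its own animal number, so each was counted as 1 animal. In whole tissue, fewer cells of a type and less miRNA per cell cannot be told apart.

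A miRNA guides an Argonaute protein to messenger RNAs, and the bases near its 5′ end, the seed, do most of the pairing to the target. Members of the miR-15/16 family share a seed and are known for repressing cyclins, cyclin-dependent kinases, CHEK1 and the survival factor BCL2, which slows passage from G1 into S phase. miR-15a and miR-16 were first known as a pair lost in chronic lymphocytic leukaemia. miR-195 and miR-497 come from another gene pair and are known in cardiac and skeletal muscle for restraining the division of myocytes. In fat, members of the family have been studied for the growth and differentiation of preadipocytes.

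The annotated sequences are shown because the seed is what joins the members and the 3′ part is what separates them. They are read from the exact-match rows of the deposited table, 5′ to 3′, with the seed (bases 2 to 8) in capitals.
miR-15b: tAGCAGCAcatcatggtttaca
miR-16: tAGCAGCAcgtaaatattggcg
miR-195: tAGCAGCAcagaaatattggc
miR-497: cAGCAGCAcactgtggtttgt
All 4 carried the seed AGCAGCA. A search of the 225 miRNAs that had an exact-match sequence found this seed in these 4 and in no other. Below, a difference is given as the base of the first sequence, the position from 1 at the 5′ end, and the base of the second. miR-16 and miR-195 were the closest pair, with 19 of 21 aligned bases the same and the differences G10A and T11G. miR-15b and miR-497 shared 15 of 21 bases, and miR-15b and miR-16 shared 14 of 22. miR-195 and its cluster partner miR-497 shared 12 of 21. The letters AGCAGC stood within the first 10 bases of 6 miRNAs: these 4, and miR-103 and miR-107, in which they begin at the first base.
miR-103: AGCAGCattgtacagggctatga
miR-107: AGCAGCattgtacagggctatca
The capitals in these last sequences mark AGCAGC. The seed of both, read at bases 2 to 8, was GCAGCAT.

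By name, in the RefSeq annotation of the later pig assembly Sscrofa11.1, MIR15B lies within 10000 bases of a miR-16 gene, and both lie inside SMC4, a condensin subunit gene. MIR15A lies beside the other miR-16 gene, and MIR195 lies beside MIR497. The table lists miR-16 under a single hairpin. Its mature reads cannot be tied to one of the 2 miR-16 genes, whose listed synonyms overlap. The pairs that could be compared as cluster partners were therefore miR-15b with miR-16 and miR-195 with miR-497.

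miR-16 made up most of the family in every library. Levels are in CPM, each count divided by its library's TMM-scaled total and multiplied up to a fixed common depth. They compare 1 miRNA across libraries, and a comparison between miRNAs also carries how well each sequence is captured in the library. miR-16 stood at 8862 ± 1831 CPM (SD, n = 18) and was the 16th most abundant of the miRNAs with enough counts to be tested. miR-195 followed at 1617 ± 496.8 CPM, miR-497 at 631.1 ± 106.995 CPM and miR-15b at 131 ± 18.9 CPM. The ranges over the 18 libraries did not overlap for miR-16, from 4628 to 12898 CPM, and miR-195, from 673 to 2780 CPM. The range of miR-497, 459 to 791 CPM, overlapped that of miR-195, and miR-15b lay below both at 97.2 to 171 CPM. miR-16 was 78.6% of the family's summed CPM on average, from 69.9% to 85.5% by library. The 4 members together took 1.13% ± 0.174 of the reads in the count table, with each distinct sequence counted once. Over all 18 libraries miR-195 had the highest coefficient of variation, 30.7%, against 20.7% for miR-16, 16.95% for miR-497 and 14.5% for miR-15b. Within the high class it was 25.9% for miR-16 and 23.4% for miR-195, and within the low class 11.1% and 24.6%.

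**Figure D1:**
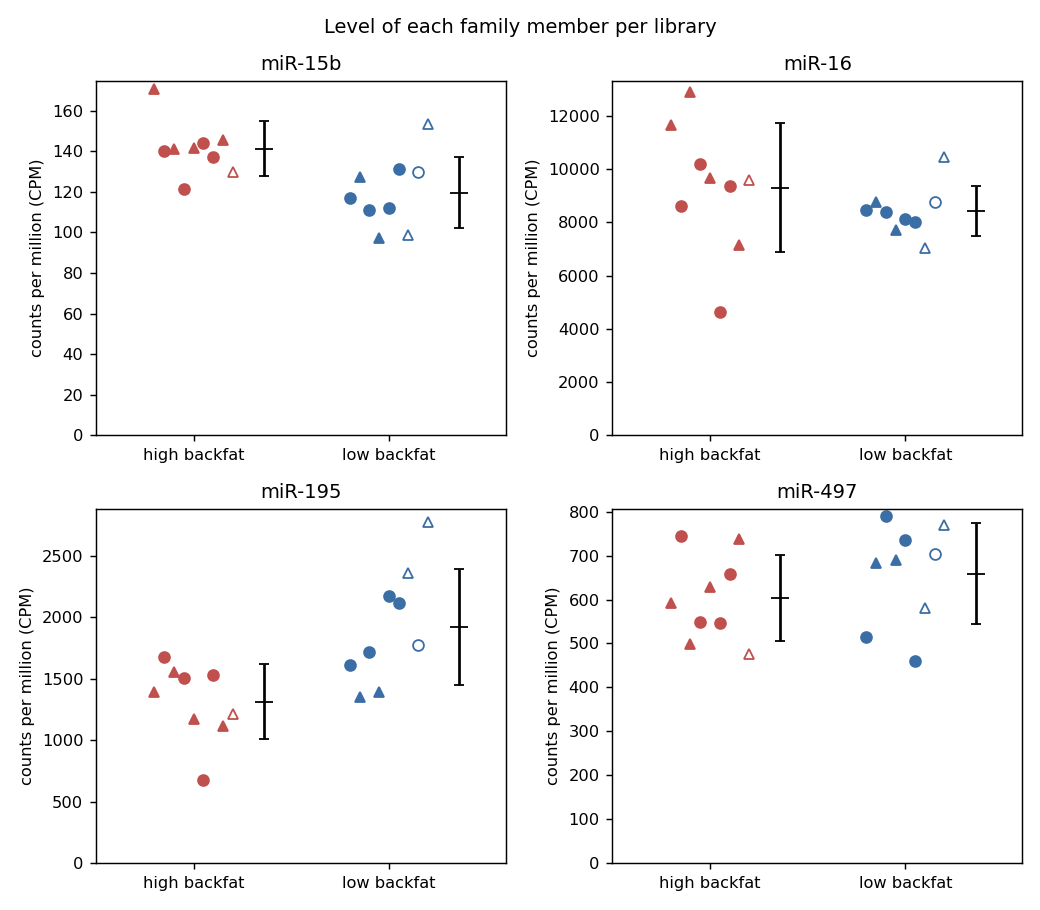
Levels in CPM of miR-15b, miR-16, miR-195 and miR-497 in each of 18 libraries, by backfat class; circles are females, triangles castrated males, open symbols the libraries coded AC485 to AC488, and bars the mean ± SD of 9. All 9 high-backfat libraries lay below the low-backfat median for miR-195 and all 9 above it for miR-15b.

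High and low backfat were compared to ask whether the family's levels differ with fat deposition. miR-195 ranged from 673 to 1678 CPM in the high class, with a median of 1395, and from 1354 to 2780 CPM among low pigs, with a median of 1777. All 9 high libraries lay below the low median, and 6 low libraries lay above the highest high library, but the classes overlapped. miR-15b ran the other way, from 121 to 171 CPM with a median of 141 among high pigs and from 97.2 to 153 CPM with a median of 117 in low pigs. All 9 high libraries lay above the low median, and 1 lay above the low range. miR-16 ranged from 4628 to 12898 CPM in the high class, with a median of 9606, and from 7054 to 10452 CPM among low pigs, with a median of 8379. Both the highest and the lowest library for miR-16 were in the high class. miR-497 ranged from 476 to 744 CPM in the high class, with a median of 592, and from 459 to 791 CPM among low pigs, with a median of 690.

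No member passed the adjusted threshold of 0.05 in edgeR's quasi-likelihood test, in which 8 of all tested miRNAs did (3.62%), 3 higher and 5 lower. The log2 fold change of miR-195, high against low, was -0.55 ± 0.17 (SE) with an unadjusted p of 0.00441 and an adjusted p of 0.0705. That of miR-15b was 0.23 ± 0.10 (unadjusted p = 0.0366, adjusted p = 0.169 in edgeR). For miR-16 it was 0.12 ± 0.14 and for miR-497 -0.13 ± 0.12, with adjusted p of 0.627 and 0.577 in edgeR. An unadjusted p under 0.05 was met by 54 miRNAs (24.4%), so 2 of the 4 members at that level are read against that share. DESeq2's Wald test called miR-195 lower, with an adjusted p of 0.0312 and a log2 fold change of -0.54 ± 0.18, where it called 22 miRNAs (9.95%). edgeR also called it on the 175 miRNAs with a mean of at least 10 CPM, at an adjusted p of 0.0466, with 9 called (5.14%).

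The library codes fall into 4 runs of near-consecutive codes, here called by their first and last code; the labels do not say what a code stands for. The run AC485 to AC488 held 1 high and 3 low libraries. The difference in mean log2 CPM of miR-195, high minus low, was -0.90 in that run and -0.99 in U134 to U139, against -0.02 in U074 to U077 and 0.05 in U966 to U969. Without the 4 AC libraries the log2 fold change of miR-195 was -0.32 ± 0.19 with an adjusted p of 0.469 in edgeR. For miR-15b the difference was positive in all 4 runs, from 0.05 to 0.34.

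**Figure D2:**
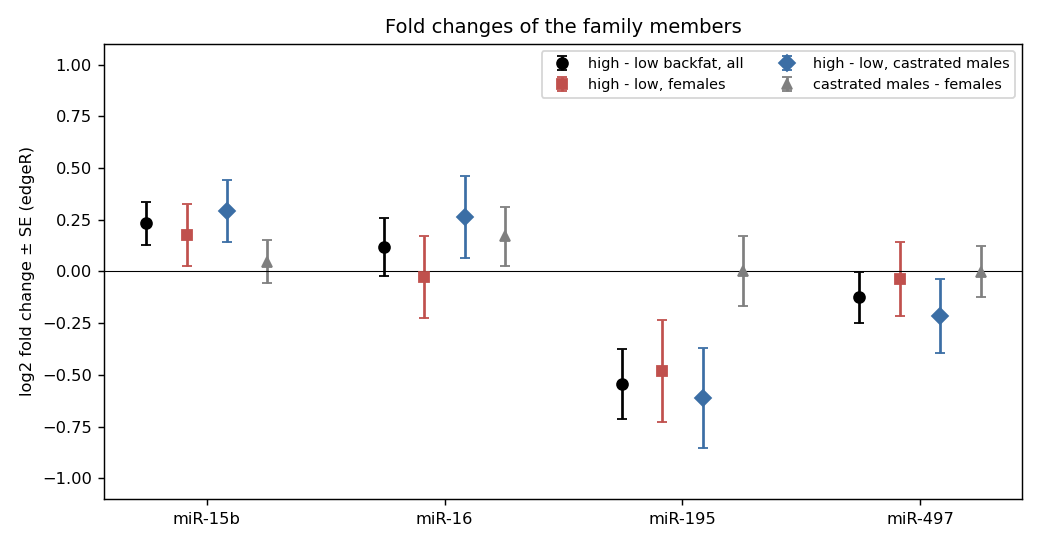
Log2 fold changes with SE from edgeR for each member, for high minus low backfat over all animals and within each sex, and for castrated males minus females. No point passed the adjusted threshold; miR-195 lay at -0.55 over all animals, -0.48 in females and -0.61 in castrated males.

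Ratios of 2 members within a library need no scaling between libraries, and 4 pairs were compared: miR-195/miR-16, miR-195/miR-15b, miR-15b/miR-16 and miR-497/miR-195. miR-195 was lower against both miR-16 and miR-15b in the high class. For each 1 read of miR-16 there were 0.142 reads of miR-195 in high pigs and 0.223 in low pigs (geometric means, n = 9 each). The log2 ratio ranged from -3.06 to -2.36 in the high class, with a median of -2.78, and from -2.70 to -1.58 in low pigs, with a median of -2.29. All 9 high libraries lay below the low median and 6 lay below the whole low range. The difference in mean log2 ratio was -0.65, with an exact two-sided permutation p of 0.000576 over 48620 splits and an adjusted p of 0.0243 over the ratios of 174 miRNAs to miR-16. Among those 174 ratios, 6 passed that threshold as lower in the high class (3.45%) and 0 as higher (0%). An unadjusted p under 0.05 was met, as lower, by 17.2%, and a p at or below that of miR-195 by 3 (1.72%). The miR-195/miR-16 difference was negative in each of the 4 runs, at -1.05, -0.53, -0.87 and -0.17 for AC485 to AC488, U074 to U077, U134 to U139 and U966 to U969. The difference in mean log2 CPM of miR-16 itself was 0.15, 0.51, -0.12 and 0.22 in the same order. In U074 to U077 and U966 to U969 that of miR-195 was near 0, at -0.02 and 0.05. There the lower ratio went with higher miR-16, not lower miR-195. The ratio difference was -0.47 in females and -0.80 in castrated males. Without the AC libraries it was -0.52 (exact permutation p = 0.00733, 8 against 6 libraries).

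Against miR-15b, miR-195 had a geometric mean of 9.05 reads for each read of miR-15b in high pigs and 15.8 in low pigs. The log2 ratio ranged from 2.22 to 3.63 among high pigs and from 3.41 to 4.58 in low pigs, with medians of 3.23 and 3.95. All 9 high libraries again lay below the low median, and 5 lay below the low range. The difference was -0.80, with an exact permutation p of 0.000288 and an adjusted p of 0.00455 over 174 ratios to miR-15b. miR-15b itself tended upward, and 34 of those 174 ratios (19.5%) passed as lower in high pigs and 1 (0.575%) as higher. As lower, 33.3% had an unadjusted p under 0.05 and 6.32% a p at or below that of miR-195. The difference was negative in all 4 runs, from -1.23 to -0.29, and was -0.71 without the AC libraries (exact permutation p = 0.00533).

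The ratios of the cluster partners did not pass with all 18 libraries. The log2 ratio of miR-15b to miR-16 was -5.99 ± 0.45 in high pigs and -6.14 ± 0.11 in low pigs (SD, n = 9 each, exact permutation p = 0.410). The high class was the more spread, from -6.51 to -5.004, with 4 libraries outside the low range of -6.31 to -5.93. The log2 ratio of miR-497 to miR-195 was -1.095 ± 0.43 in high pigs and -1.53 ± 0.44 in low pigs (SD, n = 9 each, exact permutation p = 0.0521, adjusted p = 0.0840 over 174 ratios to miR-195). Of those 174 ratios, 45.4% passed as higher in the high class. With 1 library left out, its unadjusted exact permutation p was under 0.05 in 6 of 18 cases (without high 3, 4 or 9, or low 2, 3 or 4) and ran from 0.0287 to 0.104. By run the miR-497/miR-195 difference had both signs, from -0.48 in U074 to U077 to 1.13 in U134 to U139.

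**Figure D3:**
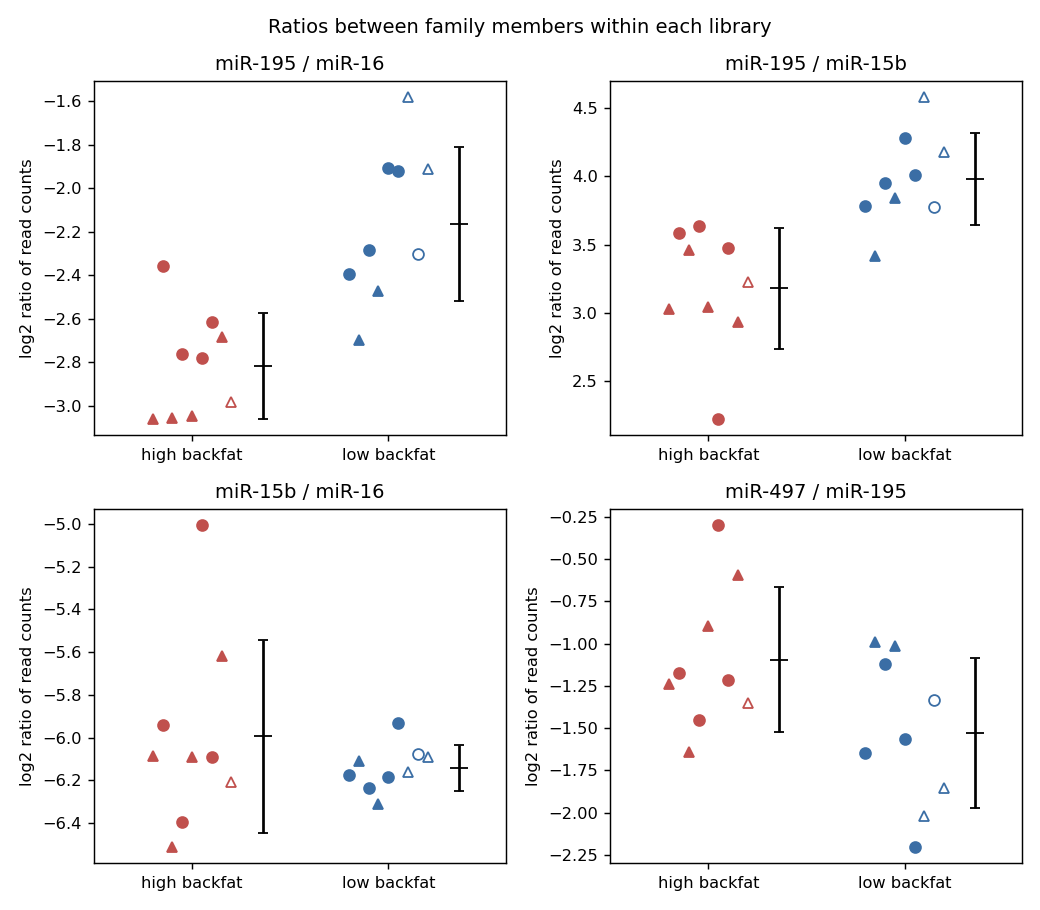
Log2 ratios of read counts between members within each of 18 libraries, by backfat class; circles are females, triangles castrated males, open symbols the libraries coded AC485 to AC488, and bars the mean ± SD of 9. The upper panels show miR-195 against miR-16 and miR-15b, with 6 and 5 high-backfat libraries below the low-backfat range; the lower panels show the cluster partners, whose classes overlap more.

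Sex was compared with backfat class in the model. No member differed between castrated males and females past the threshold, as was so for all tested miRNAs (0 called in edgeR, 0%, with 17 at an unadjusted p under 0.05, and 0 called by DESeq2). The log2 differences, castrated males minus females, were 0.17 ± 0.14 for miR-16, 0.05 ± 0.10 for miR-15b, 0.00 ± 0.17 for miR-195 and -0.00 ± 0.12 for miR-497. In high castrated males miR-16 averaged 10196 ± 2193 CPM (n = 5), against 8200 ± 2470 in high females (n = 4), 8500 ± 1481 in low castrated males (n = 4) and 8348 ± 301 in low females (n = 5). miR-195 averaged 1290 ± 181, 1346 ± 455, 1972 ± 712 and 1878 ± 250 CPM in the same order. The high-minus-low fold change of miR-195 was -0.48 ± 0.25 in females and -0.61 ± 0.24 in castrated males, and the difference between the sexes was -0.13 ± 0.35 (adjusted p = 0.918 in edgeR). No member was called within either sex or for the difference between the sexes; of all tested miRNAs, edgeR called 0 in females (0%, with 20 at an unadjusted p under 0.05), 9 in castrated males (4.07%) and 0 for the difference (25 at an unadjusted p under 0.05).

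Other miRNAs tied to cell division were looked at beside the family. Of 21 tested miRNAs known for restraining the cell cycle, such as the let-7, miR-29 and miR-34 families, 7 had positive and 14 negative fold changes in the high class. Of these, 1 was called lower, let-7c at 10583 ± 365 CPM in high pigs and 12935 ± 1423 in low pigs (log2 fold change -0.28 ± 0.07, adjusted p = 0.0486 in edgeR), and 0 were called higher. Their median log2 fold change was -0.08, against -0.03 over all tested miRNAs. Of 15 tested miRNAs known for promoting it, such as the miR-17 family and miR-221 and miR-222, which repress the cell-cycle inhibitor p27, 9 were positive and 6 negative, with a median of 0.08. Called higher were 2 of the 15, miR-222 (log2 fold change 0.89 ± 0.22) and miR-221-5p (0.99 ± 0.27), both with an adjusted p of 0.0486 in edgeR, where 3.62% of all tested miRNAs were called and 3 were higher. These calls and that of let-7c lay close to the threshold and were lost with age as a covariate, with limma and without the AC libraries (adjusted p from 0.248 to 0.252 in edgeR without them), with the sign kept throughout. miR-103 and miR-107, which hold AGCAGC one base further 5′ than the family and lie in pantothenate kinase genes, were not called. miR-103 stood at 4468 ± 754 CPM in high pigs and 3801 ± 226 in low pigs (log2 fold change 0.23 ± 0.10, adjusted p = 0.167 in edgeR), and miR-107 at 522 ± 115 and 420 ± 56.9 (0.30 ± 0.13, adjusted p = 0.167).

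Each member was read in many sequence forms, with the annotated form the most read in all 4 members and a different form second. The forms below are the most read ones besides the annotated sequence, shown because their 3′ ends differ by member; capitals mark a base that differs from the hairpin.
miR-15b, 1 base shorter: tagcagcacatcatggtttac
miR-16, 1 base shorter: tagcagcacgtaaatattggc
miR-16, 1 base longer: tagcagcacgtaaatattggcgt
miR-195, 1 base longer: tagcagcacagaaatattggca
miR-195, longer with C23A: tagcagcacagaaatattggcaA
miR-497, 1 base longer: cagcagcacactgtggtttgta
The annotated form made up 77.03% of 3421247 miR-16 reads and 69.1% of 51240 miR-15b reads. It made up 49.4% of 257336 miR-497 reads and 44.8% of 626179 miR-195 reads. In miR-195 the form 1 base longer held 43.1% of reads, nearly as many as the annotated form, and in miR-497 it held 38.1%. In miR-15b the second form was 1 base shorter, at 21.5%, and the form 1 base longer held 0.0664%. That longer form was listed above 0 only in high libraries 5 and 8 and low library 3. In miR-16 the forms 1 base shorter and 1 base longer held 10.1% and 4.45%. So, of the forms 1 base longer or shorter, the longer was the more read in the cluster partners miR-195 and miR-497. The shorter was the more read in miR-15b and miR-16. The table listed 25 forms of miR-15b, 181 of miR-16, 120 of miR-195 and 79 of miR-497. A pair of sequences with 1 mismatch, with 73 and 356 reads, was listed under both miR-16 and miR-195.

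The 3′ end of miR-497 differed between the classes. Its form 1 base longer held 40.73% ± 1.499 of miR-497 reads in the high class, from 38.1% to 42.7%, and 35.2% ± 3.59 in low pigs, from 29.6% to 41.3% (SD, n = 9 each). All 9 high libraries lay above the low median of 34.2%, and 4 lay above the low range. The exact permutation p was 0.000946, and the adjusted p was 0.0178 over the 96 miRNAs in which this form held at least 1% of reads. Of those 96, 10 passed (10.4%). This share was chosen for testing after its values had been seen. Within runs the difference was 9.74, 2.77, 7.62 and 0.06 percentage points for AC485 to AC488, U074 to U077, U134 to U139 and U966 to U969, and without the AC libraries it was 3.79 (exact permutation p = 0.0110). In miR-195 the same kind of form held 42.4% ± 6.05 in high pigs and 42.5% ± 3.69 in low pigs (exact permutation p = 0.956). The annotated form of miR-497 held 46.8% ± 4.06 in high pigs and 50.3% ± 3.52 in low pigs (exact permutation p = 0.0696). The annotated form of miR-15b held 70.8% ± 2.46 and 67.7% ± 2.44 (exact permutation p = 0.0153, adjusted p = 0.200 over 174 miRNAs, of which 16.7% had an unadjusted p under 0.05). Without the AC libraries the miR-15b difference had an exact permutation p of 0.109. The annotated forms of miR-16 (78.0% ± 3.42 and 75.4% ± 6.27) and miR-195 (45.5% ± 6.13 and 44.8% ± 2.30) did not pass either.

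Reads that start at another base carry another seed, and in this family they were rare outside miR-497. miR-15b had 0 such forms listed, but it had only 51240 reads in all, and forms of few reads may be listed at 0. miR-16 had 5 with 1201 reads, and miR-195 had 3 with 62 reads. miR-497 had 5 with 2871 reads, all starting 1 base later, so that the seed becomes GCAGCAC. The most read ones are shown with that shifted seed in capitals.
miR-497, start 1 later, 22 bases: aGCAGCACactgtggtttgtac
miR-497, start 1 later, 21 bases: aGCAGCACactgtggtttgta
miR-497, start 1 later, 20 bases: aGCAGCACactgtggtttgt
The most read form of this kind in miR-16 began 1 base earlier, with 523 reads in 17 libraries.
miR-16, start 1 earlier, 23 bases: cTAGCAGCacgtaaatattggcg
The most read one in miR-195 began 1 base later, with 35 reads in 3 libraries.
miR-195, start 1 later, 21 bases: aGCAGCACagaaatattggca
The forms of miR-497 with a later start held 0.964% ± 0.178 of its reads in the high class, from 0.679% to 1.22%, and 1.30% ± 0.191 in low pigs, from 0.991% to 1.53% (SD, n = 9 each). The exact permutation p was 0.00193, and the adjusted p was 0.0849 over the 105 miRNAs with at least 0.1% of reads at another start, of which 13.3% had an unadjusted p under 0.05 and 0 an adjusted one. The difference was negative in all 4 runs, from -0.40 to -0.23 percentage points, and -0.29 without the AC libraries (exact permutation p = 0.00899). The later-starting, 22-base form was read in 18 of 18 libraries, with 25 to 171 reads each.

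**Figure D4:**
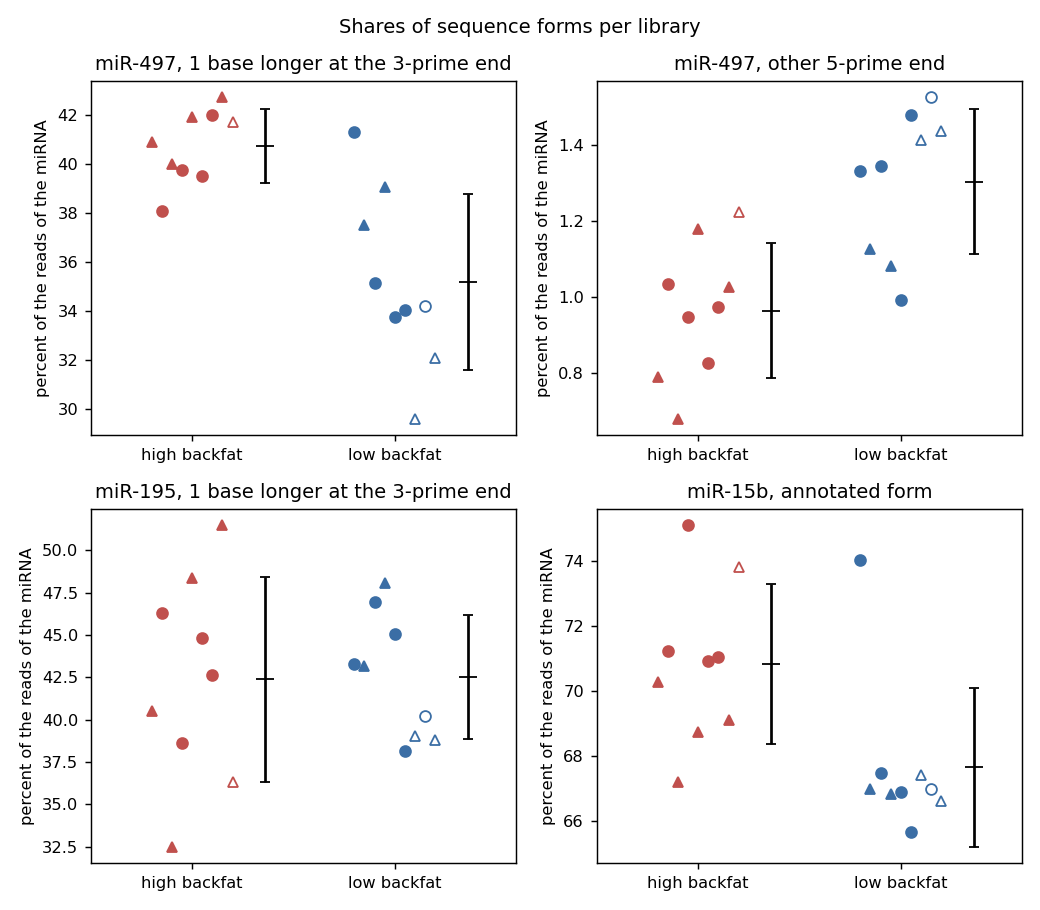
Percent of a miRNA's reads in a given sequence form in each of 18 libraries, by backfat class, for miR-497 reads 1 base longer at the 3′ end, miR-497 reads with another 5′ end, miR-195 reads 1 base longer and miR-15b reads of the annotated form; circles are females, triangles castrated males, open symbols the libraries coded AC485 to AC488, bars the mean ± SD of 9, and axes do not start at 0. For the longer miR-497 form 4 high-backfat libraries lay above the low-backfat range, and for the longer miR-195 form 2 lay above it and 2 below.

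Some reads differed from the annotated sequence at 1 base inside it. The same changes recurred across members, and examples are shown with the changed base in capitals.
miR-16, A2T: tTgcagcacgtaaatattggcg
miR-15b, A10C: tagcagcacCtcatggtttaca
miR-195, A10C: tagcagcacCgaaatattggc
miR-497, A10C: cagcagcacCctgtggtttgt
Reads with 1 changed base in the seed made up 2.31% of miR-15b reads, 3.05% of miR-16, 2.76% of miR-195 and 3.46% of miR-497. The A2T form had 1.82 reads per 100 exact reads in miR-15b, 1.84 in miR-16, 1.96 in miR-195 and 1.61 in miR-497. Its median was 1.398 over the 34 miRNAs with A at that base and at least 20000 exact reads. This and the next 2 medians use that minimum and include the members themselves. The G3T form had 0.975 to 1.16 per 100 in the 4 members, against a median of 1.02 over 16 miRNAs. The A10C form had 1.77 in miR-15b, 1.73 in miR-195 and 1.80 in miR-497, against a median of 1.44 over 24 miRNAs; miR-16 has G there. A10C was read in the same 8 libraries for miR-15b and miR-497, and in 9 for miR-195. In those 8 it took 2.58% to 6.94% of miR-15b reads and 2.78% to 9.42% of miR-497 reads, and it was listed at 0 in the other 10. All 4 AC libraries were among the 8, and so were 3 of U966 to U969 and 1 of U074 to U077. By class, 4 of the 8 were high and 4 were low. The share of A2T in miR-16 likewise ran from 0.141% to 4.28% by library, with means of 1.88% in high pigs and 1.79% in low pigs.

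**Figure D5:**
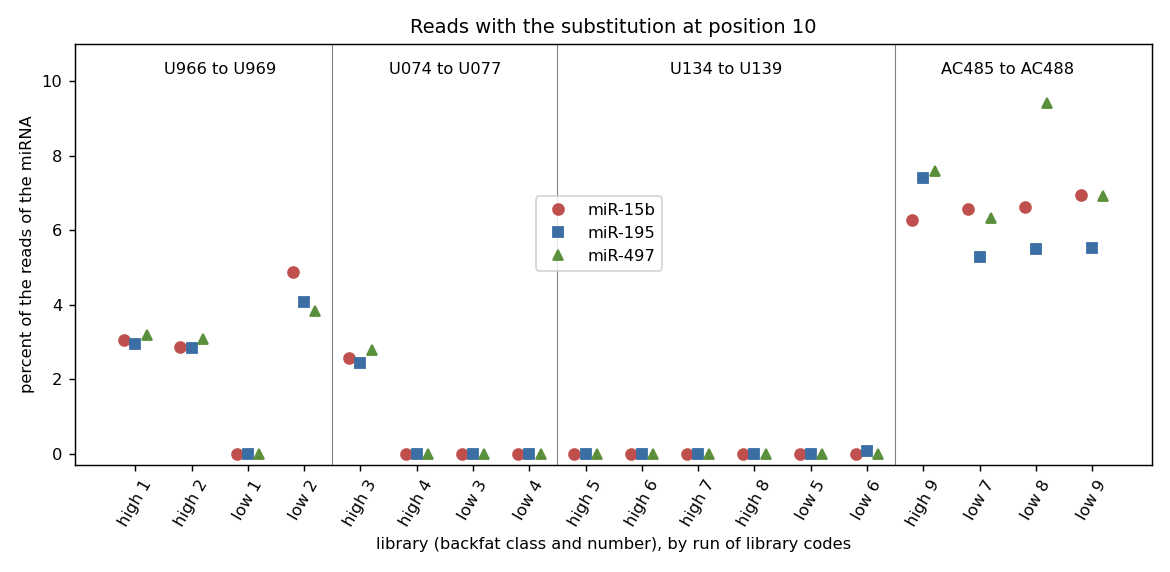
Percent of the reads of miR-15b, miR-195 and miR-497 that carried the substitution A10C in each of 18 libraries, grouped by run of library codes. The 3 miRNAs moved together: between 5.28% and 9.42% in the 4 libraries AC485 to AC488, and at or near 0 in all of U134 to U139.

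Single forms were tested as 7330 entries of the table, 130 of them forms of the family, and 0 of the 130 were called in edgeR, as were 0 of all 7330 (0%). DESeq2 called 3 of the 130, and 258 of all 7330 (3.52%). Among entries averaging 10 CPM or more, edgeR called 59 of 1837 entries (3.21%), none of them forms of the family. At an unadjusted p under 0.05 there were 15 of the 130, 2 higher and 13 lower in the high class, against 8.77% of all entries. Of the 28 tested forms of miR-195, 26 had negative fold changes, and of the 73 of miR-16, 43 had positive ones. Forms of 1 miRNA come from the same libraries and follow its level, so these counts are not independent of its own fold change. The annotated form of miR-15b had the lowest p of its forms, at 95.3 ± 15.3 CPM in high pigs and 73.64 ± 10.23 in low pigs (log2 fold change 0.38 ± 0.12, adjusted p = 0.247 in edgeR), and was called by DESeq2. The miR-195 form 1 base longer was at 524 ± 149 CPM in high pigs and 732.7 ± 136.8 in low pigs (-0.48 ± 0.16, adjusted p = 0.288). A miR-195 form ending in another base had the lowest p of that member.
miR-195, A22T: tagcagcacagaaatattggcT
It was at 2.67 ± 0.776 CPM in high pigs and 3.94 ± 0.676 in low pigs (-0.54 ± 0.18, adjusted p = 0.281 in edgeR), and was called lower by DESeq2. In miR-497 the lowest p was that of a form with a changed seed.
miR-497, A2G: cGgcagcacactgtggtttgt
This form was at 1.84 ± 0.971 CPM in high pigs and 3.28 ± 1.13 in low pigs (-0.82 ± 0.24, adjusted p = 0.214 in edgeR), and was called lower by DESeq2. In miR-16 it was a form 2 bases longer with T23G, at 2.30 ± 0.612 CPM in high pigs and 1.67 ± 0.281 in low pigs (0.45 ± 0.19, adjusted p = 0.472 in edgeR).

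Of 6 pairs of members, none passed an adjusted threshold by Pearson's r or Spearman's rho on log2 CPM over 18 libraries (permutation tests). For miR-15b and miR-16, which have genes side by side, r was 0.30 (permutation p = 0.230, adjusted p = 0.530) and rho 0.40 (permutation p = 0.0997, adjusted p = 0.598), and r was 0.17 without the libraries farthest from the median of miR-15b. It was 0.87 within low pigs and 0.02 within the high class (n = 9 each, not tested). By sex it was -0.41 in females and 0.67 in castrated males (n = 9 each, not tested). For miR-195 and miR-497, r was 0.21 (permutation p = 0.402, adjusted p = 0.604) and rho 0.23 (permutation p = 0.352, adjusted p = 0.703), and r was -0.05 without the libraries farthest from the median of miR-195. For miR-16 and miR-195, r was 0.40 (permutation p = 0.106, adjusted p = 0.530) with rho 0.02 (permutation p = 0.929, adjusted p = 0.947). That r rests on high libraries 3 and 6, the farthest from the median of miR-16, and was -0.11 without them. With class and sex means removed, r of miR-16 and miR-195 was 0.66 (permutation test, adjusted p = 0.0234 over the 6 pairs), and no other pair passed. Without that removal, r of this pair was 0.83 within the high class and 0.21 within low pigs. It was 0.77 in females and 0.04 in castrated males (n = 9 each, not tested). The r of 0.66 was not recomputed without high libraries 3 and 6.

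The miRNAs with the most similar pattern over the 18 libraries, among 173 or 174 candidates with a mean of at least 10 CPM, were other miRNAs than the members. For miR-195 they were miR-152 (r = 0.87), miR-199a-3p (0.83) and miR-23a (0.80). For miR-16 they were miR-126-3p (0.78), let-7g (0.76) and miR-148b-5p (0.75). For miR-15b they were miR-132 (0.59), let-7e (0.57) and miR-130b (0.57), and for miR-497 miR-676-3p (0.58), miR-338 (0.54) and miR-196a (0.48). These are the highest values picked from all candidates and are a description only.

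Markers of other cell types were measured beside the family, since red blood cells are rich in miR-16. The summed level of miR-451, miR-144 and miR-486, the red blood cell miRNAs, ranged from 3082 to 6649 CPM among high pigs and from 2603 to 10337 CPM among low pigs, and 0 of the 3 were called. The sum joins miRNAs of different direction. Log2 fold changes were 0.47 ± 0.21 for miR-486, -0.35 ± 0.26 for miR-451 and -0.15 ± 0.26 for miR-144 (adjusted p = 0.169, 0.407 and 0.749 in edgeR). Against this sum miR-16 had r = -0.01 (permutation p = 0.974, adjusted p = 0.979) and rho = 0.27 (permutation p = 0.279, adjusted p = 0.545) over 18 libraries, and r was 0.18 without the libraries farthest from the median. miR-15b had r = -0.01 (permutation p = 0.979, adjusted p = 0.979) and rho = 0.28 (permutation p = 0.265, adjusted p = 0.545), and its r was 0.56 without those libraries. miR-199a-3p and miR-199a-5p, from stromal cells, were called lower in the high class, at log2 fold changes of -0.50 ± 0.13 and -0.38 ± 0.09 (adjusted p = 0.0486 each in edgeR). These calls were lost under the same 3 settings, among others (adjusted p = 0.252 and 0.235 in edgeR without the AC libraries). With 1 library left out, miR-199a-3p was called in 5 of 18 cases and miR-199a-5p in 7. They were 2 of 7 tested arms of the mesenchyme list, against 3.62% called over all tested miRNAs. The list's summed level ranged from 123723 to 246310 CPM among high pigs and from 172102 to 252106 CPM among low pigs. Most of this sum was miR-143-3p, at means of 190666 CPM in high pigs and 194986 in low pigs (log2 fold change -0.03 ± 0.13). The other uncalled arms were at 0.02 for miR-143-5p, -0.31 for miR-145-3p, -0.27 for miR-145-5p and -0.28 for miR-214. The skeletal muscle list (miR-1, miR-133a-3p, miR-133b and miR-499-5p) ranged from 48.0 to 129 CPM among high pigs and from 78.4 to 210 CPM among low pigs. Its median log2 fold change was -1.24, from -1.56 for miR-1 to -0.42 for miR-499-5p, and 0 of 4 were called. Their unadjusted p in edgeR ran from 0.00727 to 0.0387, where 24.4% of all tested miRNAs were under 0.05. Mean levels in high and low pigs were only 1.52 and 4.44 CPM for miR-1, and 1.06 and 2.40 CPM for miR-133b. Of the white blood cell, endothelial, epithelial and liver lists, 0 tested arms were called. The part of these cell types in the lower miR-195 was not tested.

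Library totals over distinct sequences ran from 9601510 to 34588252 reads. The least read annotated form, that of miR-15b, had 575 to 3282 reads per library. Of the family's 405 listings, 15 had no read in these 18 libraries. The lowest nonzero count of any family form was 10 in 12 libraries and 5 to 9 in the others. In the whole table the value 11 occurred 5440 times, 10 occurred 7786 times, 9 occurred 1587 times and 8 occurred 3717 times. The value 3 occurred 762 times, 2 occurred 27 times and 1 occurred 0 times. No single cut is seen, so how many reads a form listed at 0 had is not known. It may have had up to about 9 reads there, and the shares of rare forms carry this limit.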

How the data were processed

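Small RNA of 18 pigs was made into TruSeq small RNA libraries and sequenced as single reads of 100 bases, per the labels' protocols. The authors deposited raw counts of reads per sequence form of each mature miRNA, and a normalised signal equal to those counts divided by 1 size factor per library (0.464 to 1.93). Per the submitters' processing notes, the tools included Bowtie 0.12.7, HTSeq and DESeq2 1.4.5, and the genome was Sscrofa10.2. No source used here gives the trimming and mismatch rules. The table cannot tell sequencing errors from added or edited bases. Of its columns, 2 matched no sample and were not used. Gene neighbours came by name from RefSeq's Sscrofa11.1 table, so no coordinates are given. Sequences come from the deposited count table.

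Where a sequence was listed more than once under a mature miRNA, only its highest count was kept, and forms were then summed. The main test was edgeR 4.0.16's quasi-likelihood F test (R 4.3.3) after filterByExpr on the 2 classes and TMM scaling, with sex as a covariate and Benjamini-Hochberg adjustment over 221 miRNAs or 7330 entries; a filter on the full model was tried first, kept 9012 entries and also called 0. The contrasts within each sex use a fit of 4 cells with 1 estimate of spread, on the same 221 miRNAs. SE comes from the F statistic. Log2 CPM used a prior count of 2. Ratios and shares used exact two-sided permutation tests of 9 against 9, and correlations 100000 permutations. Adjusted p-values of ratios and shares are over all miRNAs with a mean of at least 10 CPM and counts in every library (for shares, also the stated minimum share), a background computed after the members' values were seen. Alternatives used DESeq2 1.42.0 and limma 3.58.1 (log2 of the deposited signal plus 1); Python 3.11.15, pandas 2.3.3, NumPy 2.4.6 and SciPy 1.17.1 did the rest, and the edgeR step was tested on simulated data. The members, lists and tests were chosen with earlier results of these data known. Named were all members, the AGCAGC relatives, the 2 lowest p of each cell-cycle list, the 3 most read and 2 lowest-p forms of each member (fewer where these add nothing), its most read form with another start, and its 3 most similar miRNAs; the recurrent substitutions, the longer miR-497 form and the stromal miRNAs were named with their values already known.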

Additional observations from a re-analysis of the deposited data

Results flagged for a closer look

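Of 32 sets of 9 libraries checked for a single value far from the rest (levels, ratios and form shares of the members by class), 4 were flagged, and chance flags about 1 in 20. High library 1 had the highest miR-15b level, 171 CPM, with a gap to the next of 0.510 of the class's range. Low library 9 had the highest miR-16 level of its class, 10452 CPM. High library 6 had the lowest log2 ratio of miR-195 to miR-15b, 2.22; it also had the lowest miR-16 and miR-195 levels of all 18. Low library 1 had 74.01% of its miR-15b reads in the annotated form, with a gap to the next low library of 0.784 of the range.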

How the results depend on the processing

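Over all alternatives of the high-against-low comparison, the fold change of each of the 4 members kept its sign. miR-195 was called on miRNAs with a mean of at least 10 CPM (log2 fold change -0.58) and by DESeq2 (-0.54), so 1 member was called there, and DESeq2 called 3 of the member forms; with fewer genes tested the first adjustment is over 175 miRNAs, and the cause of the others was not tested. With the library-code run in the model miR-195 was at -0.45 (adjusted p = 0.251 in edgeR), and leaving out 1 library at a time gave -0.60 to -0.44. The count of all called miRNAs ran from 0 (age as a covariate, limma, or no AC libraries) to 22 (DESeq2), against 8 as reported, and from 0 to 13 when 1 library was left out. Of the called miRNAs named here, let-7c was called in 3 of 11 other settings, miR-222 in 6, miR-199a-3p and miR-199a-5p in 5 each, and miR-221-5p in 4 of 10. With 1 library left out, let-7c was called in 3 of 18 cases, miR-222 in 5, miR-221-5p in 4, miR-199a-3p in 5 and miR-199a-5p in 7.

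The differences between castrated males and females lay near 0 and changed sign for miR-15b, miR-195 and miR-497. That of miR-16 kept its sign, from 0.085 to 0.23. For miR-497 they were 0.0018 with DESeq2's size factors, 0.0066 with no filter, 0.0019 with DESeq2, 0.013 with the run as a covariate, 0.024 with all listings summed, 0.0091 with exact and length forms only and 0.067 without the AC libraries. For miR-195 they were -0.0044 with age as a covariate, -0.10 with the run, -0.00076 with exact and length forms only and -0.19 without the AC libraries, and for miR-15b -0.0020 with age. When 1 library was left out they ran from -0.015 to 0.090 for miR-15b, -0.098 to 0.079 for miR-195 and -0.052 to 0.063 for miR-497. In females the backfat effect then ran from -0.15 to 0.15 for miR-16 and -0.13 to 0.051 for miR-497, and the difference of the miR-195 effect between the sexes from -0.29 to 0.080. The log2 miR-497/miR-195 difference ran from 0.33 to 0.50, with an unadjusted exact permutation p under 0.05 in 6 of 18 cases. The share of annotated miR-497 differed by -4.90 percentage points when counted among exact and length forms only (exact permutation p = 0.00580). After removing class and sex means, r was 0.14 for miR-15b with miR-195, 0.12 for miR-15b with miR-497 and 0.66 for miR-16 with miR-195 (permutation test, adjusted p = 0.0234). No paired analysis was possible because each library carries its own animal number and the replicate numbers were given in accession order. Leaving out the AC libraries or single libraries for ratios and shares, the full-model filter for forms and the longer-form share were chosen after seeing the data.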
